A study of Homo sapiens with 36 samples.

Results

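The genes described here work in protein folding, translocation and quality control in the endoplasmic reticulum (ER), or belong to the unfolded protein response. They were chosen by gene symbol, and 38 of 38 symbols were found among the 19137 symbols of the deposited tables. A gene listed with more than 1 transcript was represented by the one with the most counts on average. By role they are 12 chaperones and lectins, 7 oxidative folding enzymes, 7 translocon subunits, 8 degradation genes, and 3 stress sensors with the transcription factor XBP1. All 38 had at least 1 count, and their sums over the 36 libraries ran from 4 counts for DERL3 to 127124 counts for CALR.

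The study compared RNA and ribosome footprints in 2 human cell models of transformation. In MCF10A-ER-Src cells, a breast epithelial line, tamoxifen switches on a Src kinase joined to the hormone-binding part of the oestrogen receptor. The other model is a series of derivatives of BJ skin fibroblasts, labelled ELR, EL and EH. ER-Src cells received 1 µM 4-hydroxytamoxifen for 1, 4 or 24 h, and the uninduced libraries were taken at 0 h or after ethanol, the vehicle, for 1, 4 or 24 h. All ER-Src groups carry the fusion, with or without its ligand. The labels leave the BJ names unexplained. As background, BJ series of this type carry telomerase (hTERT), with the SV40 early region added next and an oncogenic HRAS last, so every line named here would share telomerase. Which promoters drive these genes and whether a line is 1 clone are not given in the sources used here. Footprint libraries were made after cycloheximide (100 µg/ml, 90 s), which stops ribosomes where they are, or after harringtonine (2 µg/ml, 5 min), which traps ribosomes that have just started. Under cycloheximide each BJ line and each tamoxifen time had 2 libraries, and 0 h and each ethanol time had 1. RNA had 1 library per BJ line, per tamoxifen time, at 0 h and per ethanol time. Harringtonine libraries numbered 2 per BJ line, and 1 each at 0 h and at 1, 4 and 24 h of tamoxifen. Total counts ran from 1178012 to 3628073 in cycloheximide libraries, from 2071883 to 3008760 in RNA libraries and from 129175 to 374359 in harringtonine libraries. No label says that replicates came from separate cultures, so p-values may measure technical spread. The summed epithelial markers (5 genes) ran from 7235 to 14361 CPM in the 10 ER-Src cycloheximide libraries and from 1.52 to 5.77 CPM in the 6 BJ ones, where KRT5 and CDH1 were at 0. CPM is the number of counts per 1000000 counts of the library, after trimmed mean (TMM) scaling.

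Proteins that enter the ER pass the SEC61 channel, are folded by chaperones such as HSPA5 (BiP) and by disulphide isomerases, and are sent back to the cytosol for degradation if folding fails. Unfolded proteins activate 3 sensors, ATF6, ERN1 (IRE1) and EIF2AK3 (PERK). ATF6 and the spliced form of XBP1 bind ER stress elements in the promoters of folding genes, IRE1 splices the XBP1 message, and PERK slows translation in general while that of ATF4 goes up.

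The promoters of the genes were searched for such elements, since groups of these genes moved together in the uninduced ER-Src cells described further on. Promoters ran from 250 bases before to 50 after the start, from RefSeq (GRCh38.p14), and 35 of the 38 genes had at least 1, in 45 promoters. PDIA3, DERL1 and DERL3 had none in the table. Both strands were searched. ERSE (CCAAT and CCACG with 9 bases of any kind between them) was found in 8 genes, CALR, CANX, CRELD2, ERO1LB, HSP90B1, HSPA5, PDIA6 and XBP1, and in 0.0769% of all 35116 promoters. ERSE-II (ATTGG and CCACG with 1 base between them) was found in 3, HERPUD1, HYOU1 and SDF2L1, and in 0.0541% of all promoters. The shorter UPRE (TGACGTGG) was found in HYOU1, SSR3 and SSR4 and in 0.729% of all promoters, and in HYOU1 it overlapped an ERSE-II. A match of letters is a description and not evidence of binding. In 6 of the 11 genes with ERSE or ERSE-II the site lay as follows, with 25 bases on each side, read in the direction of the gene. The capitals are the fixed letters of the motif, on either strand. These 6 are shown because their values are given per library below or head a comparison.
HSPA5, chr9:125241366-125241434, minus strand, ERSE beginning 66 bases before the start: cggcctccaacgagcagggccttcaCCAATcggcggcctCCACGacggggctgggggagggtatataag
CALR, chr19:12938359-12938427, plus strand, ERSE, 225 bases before the start: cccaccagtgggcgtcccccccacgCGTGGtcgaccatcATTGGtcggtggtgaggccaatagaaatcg
HYOU1, chr11:119057249-119057309, minus strand, ERSE-II, 79 bases before the start: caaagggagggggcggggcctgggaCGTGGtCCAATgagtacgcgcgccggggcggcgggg
SDF2L1, chr22:21642089-21642149, plus strand, ERSE-II, 188 bases before the start: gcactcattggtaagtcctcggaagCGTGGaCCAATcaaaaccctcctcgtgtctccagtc
HERPUD1, chr16:56932000-56932060, plus strand, ERSE-II, 117 bases before the start: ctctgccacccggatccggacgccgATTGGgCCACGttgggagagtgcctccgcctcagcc
XBP1, chr22:28800578-28800646, minus strand, ERSE, 52 bases before the start: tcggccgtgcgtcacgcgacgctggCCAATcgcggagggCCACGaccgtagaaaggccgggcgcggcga
The HERPUD1 site has the ERSE-II letters in the direction of the gene, and those of HYOU1 and SDF2L1 lie on the other strand. HYOU1 and HSP90B1 each held a second site, at 185 and 194 bases before the start.

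The comparisons between BJ lines ask how the footprints of these genes, which follow both message level and ribosome load, changed along the series. More of the folding genes fell than rose in cycloheximide footprints of EL against EH and of ELR against EL. Together the 38 genes took 1.25% and 1.25% of all cycloheximide footprints in the ELR libraries, 1.53% and 1.52% in the EL libraries, and 1.73% and 1.70% in the EH libraries. Their share of harringtonine footprints did not follow that order, with 0.912% and 0.918% in ELR, 1.04% and 1.06% in EL, and 0.934% and 0.950% in EH. In EL against EH, 22 of 36 tested genes fell and 3 rose (edgeR quasi-likelihood test, adjusted p under 0.05 over all genes), where 22.4% of all 9996 genes fell and 19.1% rose. In ELR against EL, 16 fell and 2 rose, where 18.7% of all genes fell and 17.4% rose. In ELR against EH, 26 fell and 1 rose, where 27.8% of all genes fell and 25.5% rose. Of the 36 tested genes, 31 were at or above the median abundance, and among all genes at or above it 27.4% fell and 28.7% rose in EL against EH, 22.9% and 24.7% in ELR against EL, and 31.8% and 35.6% in ELR against EH. The median log2 change of the tested genes was −0.34, −0.15 and −0.62, against −0.01 for all genes in each. The comparisons share libraries and are not independent. ERO1LB and DERL3 were too low to test. When the wider spread seen among ER-Src libraries was put into the test, 12 genes were called in EL against EH (11 lower) and 7 in ELR against EL (5 lower). The share of all genes called with that spread was not taken. Leaving out 1 library in turn gave 19 to 25 calls in EL against EH, 14 to 18 in ELR against EL and 23 to 28 in ELR against EH.

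**Figure D1:**
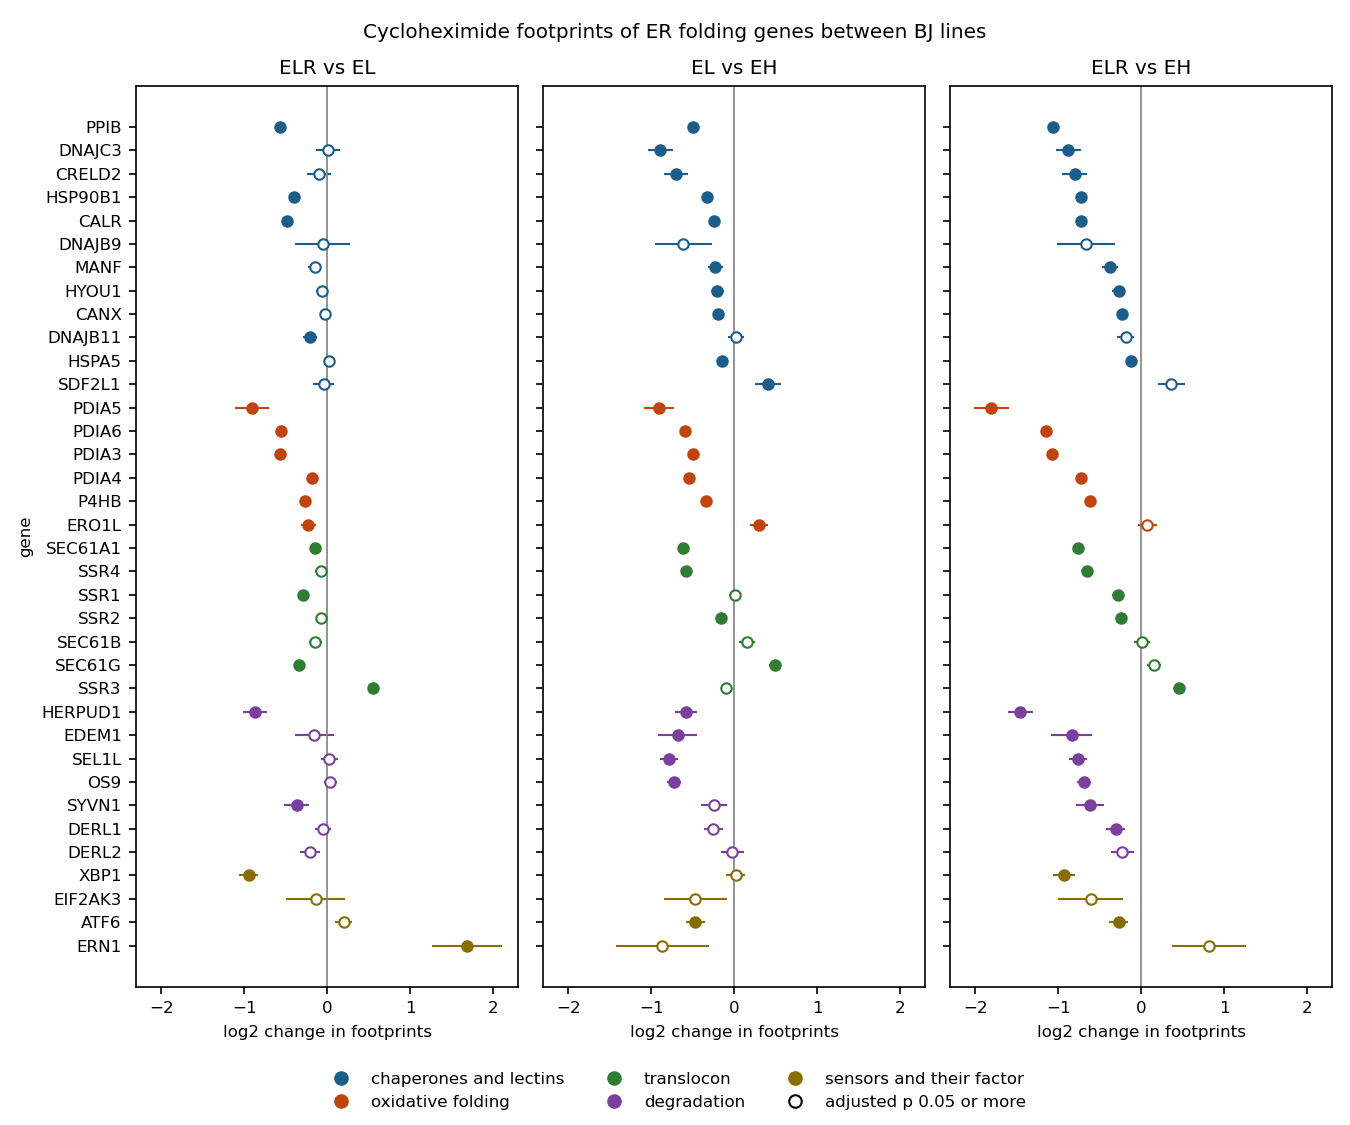
Log2 change in cycloheximide footprints (x axis) of the 36 tested genes (y axis, grouped by role) in ELR against EL, EL against EH and ELR against EH. Points are edgeR estimates with their standard errors, filled where the adjusted p is under 0.05. Most points lie left of 0, and SSR3 (0.56 and 0.46) lies right of it in both comparisons of ELR.

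Among the chaperones and lectins, 9 of 12 fell and SDF2L1 rose in EL against EH, 4 fell in ELR against EL, and 9 fell in ELR against EH. In EL against EH, MANF lost its call without any 1 of the 6 libraries (log2 changes from −0.16 to −0.27). HYOU1 lost it there without either EH library or the first EL library (−0.24, −0.17 and −0.11), and CRELD2 without the first EH library (−0.39). In ELR against EL, DNAJB11 lost it without either ELR library or the first EL library (−0.27, −0.17 and −0.11). In ELR against EH, HYOU1 lost it without the first ELR library (−0.23). CALR (NM_004343, GRCh37 chromosome 19, 13049392 to 13055303), calreticulin, a lectin that holds unfinished glycoproteins, was the most abundant of the 38. It had 2045 and 2062 CPM in the ELR libraries, 2931 and 2889 CPM in the EL libraries, and 3531 and 3385 CPM in the EH libraries. The 3 lines did not overlap. The log2 change was −0.48 ± 0.028 (SE) in ELR against EL (adjusted p = 1.31e-24) and −0.24 ± 0.028 in EL against EH (adjusted p = 3.81e-11). PPIB, cyclophilin B, a prolyl isomerase that acts on procollagen, had 821 and 807 CPM in the ELR libraries, 1239 and 1213 CPM in the EL libraries, and 1720.3 and 1770.2 CPM in the EH libraries. It fell by 1.07 ± 0.038 on the log2 scale in ELR against EH, the strongest drop of a chaperone there. DNAJC3 (p58IPK), a co-chaperone of BiP that inhibits PERK, followed another course. It had 40.1 and 54.9 CPM in the ELR libraries, 46.2 and 47.2 CPM in the EL libraries, and 84.3 and 90.3 CPM in the EH libraries. ELR and EL overlapped and both lay below EH (EL against EH −0.89 ± 0.15, adjusted p = 6.24e-07). HSPA5 (NM_005347, chromosome 9, 127997132 to 128003661), the BiP chaperone itself, was chosen for its role after its values were seen. It had 1378 and 1285 CPM in the ELR libraries, 1357 and 1314 CPM in the EL libraries, and 1527 and 1446 CPM in the EH libraries. Its change was −0.15 ± 0.037 in EL against EH (adjusted p = 0.000724). In ELR against EH it was −0.13 ± 0.037 (adjusted p = 0.00288, and 0.0759 without the first EH library or 0.116 without the second ELR library). HSP90B1 (GRP94), another abundant chaperone, fell by 0.73 ± 0.037 in ELR against EH. SDF2L1, a BiP cofactor, had 63.4 and 55.9 CPM in the ELR libraries, 59.7 and 66.7 CPM in the EL libraries, and 50.1 and 45.1 CPM in the EH libraries. It rose by 0.40 ± 0.16 in EL against EH (adjusted p = 0.0323), a call lost without either EH library or without the second EL library (adjusted p = 0.0976, 0.165 and 0.150).

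Of the oxidative folding enzymes, 5 of 6 tested fell in EL against EH, 6 of 6 in ELR against EL and 5 of 6 in ELR against EH. PDIA4, 1 of the 6 in ELR against EL, lost its call there without the first ELR library (adjusted p = 0.141). Their share of all cycloheximide footprints was 0.235% and 0.229% in ELR, 0.304% and 0.313% in EL, and 0.382% and 0.373% in EH. P4HB, protein disulphide isomerase, also a subunit of the prolyl hydroxylase of collagen, had 1154 and 1129 CPM in the ELR libraries, 1404 and 1399.8 CPM in the EL libraries, and 1817 and 1757 CPM in the EH libraries. The lines were ordered without overlap. PDIA5, a disulphide isomerase of lower level, had 17.6 and 13.3 CPM in the ELR libraries, 28.9 and 31.3 CPM in the EL libraries, and 60.8 and 51.5 CPM in the EH libraries. Its log2 change of −1.80 ± 0.21 in ELR against EH (adjusted p = 1.29e-11) was the largest of any of the 36 genes in that comparison. PDIA3 and PDIA6, 2 further isomerases, fell by 1.07 ± 0.059 and 1.15 ± 0.052 between the same lines. The exception was ERO1L (current symbol ERO1A), the oxidase that recharges the isomerases. It had 110.4 and 117 CPM in the ELR libraries, 140.5 and 128 CPM in the EL libraries, and 116 and 102 CPM in the EH libraries. EL lay above both other lines, and ELR overlapped EH. The rise in EL against EH (0.30 ± 0.11, adjusted p = 0.0177) and the drop in ELR against EL (−0.23 ± 0.090, adjusted p = 0.0388) were unsteady calls. The rise was lost without the first EL library (adjusted p = 0.121) or the second EH library (0.164), and the drop without either ELR library (0.313 and 0.0566) or the first EL library (0.290).

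Collagens and other fibroblast products moved with the line. In cycloheximide footprints the summed fibroblast markers (6 genes) ran from 10793 to 10860 CPM in ELR, from 14651 to 14884 CPM in EL and from 39429 to 39513 CPM in EH, with no marker at 0. COL1A1, a chain of type I collagen that passes through the ER, had 235 to 246 CPM in ELR, 1448 to 1454 CPM in EL and 9921 to 10059 CPM in EH. The part of this secretory load in the folding genes' changes was not tested. In bulk libraries fewer cells of a kind and less RNA per cell cannot be told apart.

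The translocon did not move as 1 block, and its share of all cycloheximide footprints lay between 0.253% and 0.265% in all 3 lines. In EL against EH, 3 of 7 subunits fell and SEC61G rose, and in ELR against EL, 3 fell and SSR3 rose. The call of SSR2 in EL against EH was lost without any 1 library except the first EL one (log2 changes from −0.11 to −0.16). SEC61A1, the pore itself, had 409 and 408 CPM in the ELR libraries, 455 and 468 CPM in the EL libraries, and 704 and 715 CPM in the EH libraries. Its drop lay mainly between EL and EH (−0.61 ± 0.051, adjusted p = 6.20e-17). In ELR against EL it was −0.15 ± 0.050 (adjusted p = 0.0122, and 0.115 without the first ELR library or 0.113 without the second EL library). SSR3 (NM_007107, chromosome 3, 156257342 to 156272938), the gamma subunit of the translocon-associated TRAP complex, was the only gene of the 36 that rose in ELR against EH. It had 920 and 881 CPM in the ELR libraries, 628 and 615 CPM in the EL libraries, and 681 and 661 CPM in the EH libraries. ELR stood above both other lines (ELR against EL 0.56 ± 0.040, adjusted p = 8.13e-20; ELR against EH 0.46 ± 0.046, adjusted p = 7.10e-14). The RNA libraries had 313, 154 and 224 CPM of SSR3 in ELR, EL and EH. Under harringtonine it had 451 and 448 CPM in ELR, 198 and 168 CPM in EL, and 149 and 140 CPM in EH. The other subunits of the complex did not share this: SSR1, SSR2 and SSR4 had log2 changes of −0.28 ± 0.073, −0.24 ± 0.063 and −0.65 ± 0.070 in ELR against EH, and all 3 fell, SSR1 not without the first EH library (−0.17, adjusted p = 0.167). SEC61G, a small subunit of the channel, rose by 0.49 ± 0.076 in EL against EH and fell by 0.34 ± 0.063 in ELR against EL.

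**Figure D2:**
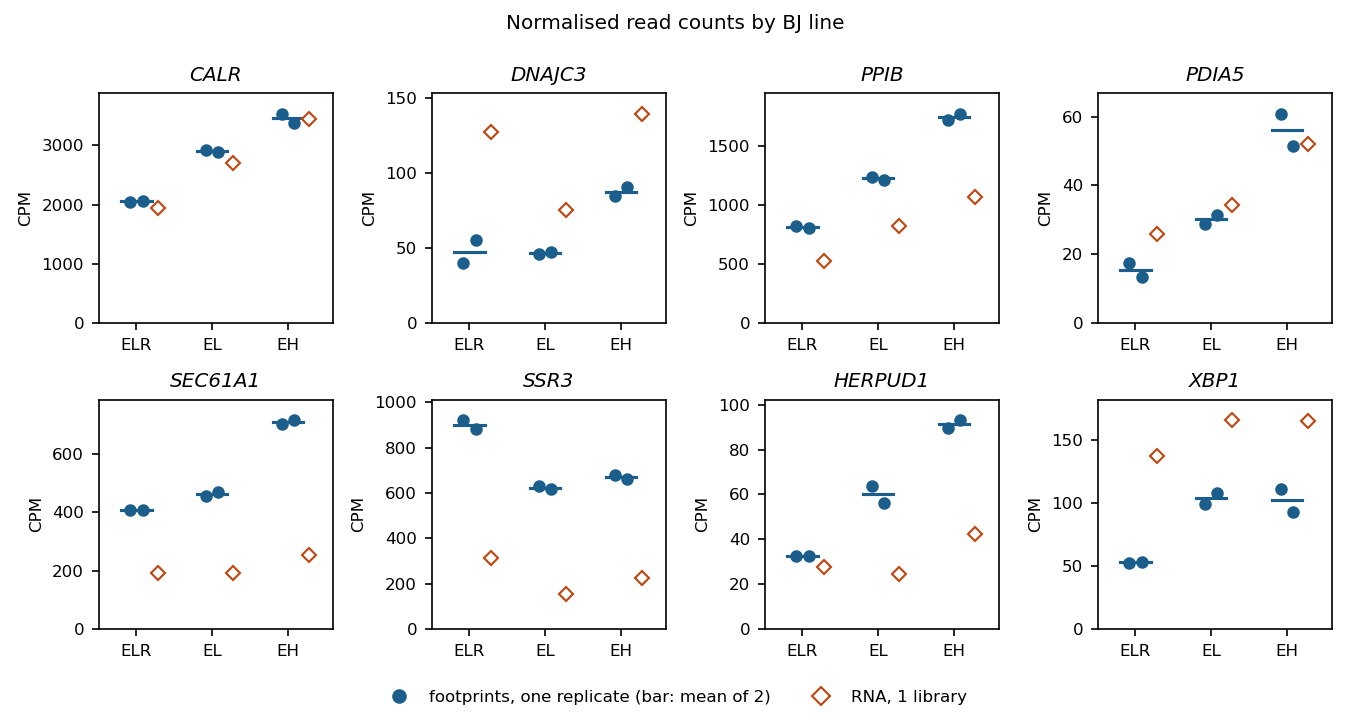
Normalised read counts (y axis, CPM, from 0) of 8 genes in ELR, EL and EH (x axis). Circles are the 2 cycloheximide libraries of a line with a bar at their mean, and diamonds the single RNA library. CALR, PPIB and PDIA5 footprints are lowest in ELR and highest in EH, SSR3 is highest in ELR, and XBP1 footprints are low in ELR alone (52.7 and 53.3 CPM).

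Of 7 degradation genes tested, 4 fell in EL against EH, 2 in ELR against EL and 6 in ELR against EH, and none rose. The call of EDEM1 in EL against EH was lost without the second EH library (log2 change −0.56) or the first EL library (−0.62). In ELR against EH the EDEM1 call was lost without the second EH library (−0.72) or the first ELR library (−0.64). SYVN1 lost its call in ELR against EL without the second ELR library or the first EL library (−0.26 in each). HERPUD1, a membrane protein of the degradation complex that the stress response induces, had 32.5 and 32.5 CPM in the ELR libraries, 63.9 and 56.3 CPM in the EL libraries, and 89.6 and 93.0 CPM in the EH libraries. The 3 lines were ordered without overlap (ELR against EL −0.87 ± 0.15, adjusted p = 8.08e-07; EL against EH −0.58 ± 0.13, adjusted p = 0.000214). SEL1L, the adaptor of the ubiquitin ligase SYVN1 (HRD1), had 87.1 and 84.7 CPM in the ELR libraries, 85.8 and 85.8 CPM in the EL libraries, and 153 and 144 CPM in the EH libraries. ELR and EL overlapped and EH stood above both (EL against EH −0.79 ± 0.11, adjusted p = 3.65e-09). OS9, a lectin that presents substrates to SEL1L, fell in that comparison too (−0.73 ± 0.083). DERL1, a channel-like protein of the same complex, had 92.0 and 94.8 CPM in the ELR libraries, 103 and 92.6 CPM in the EL libraries, and 115 and 120.1 CPM in the EH libraries. Its call in ELR against EH (−0.30 ± 0.11, adjusted p = 0.0207) was lost without either EH library or the first ELR library (adjusted p = 0.0545, 0.141 and 0.137).

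The 3 sensors and XBP1 differed from each other. XBP1 (chromosome 22, 29190543 to 29196585) had 52.7 and 53.3 CPM in the ELR libraries, 99.7 and 108 CPM in the EL libraries, and 112 and 93.0 CPM in the EH libraries. EL and EH overlapped and ELR lay below both (ELR against EL −0.95 ± 0.11, adjusted p = 1.33e-10). Its RNA showed a smaller step, with 137, 166 and 165 CPM in ELR, EL and EH. ERN1, the IRE1 kinase and nuclease, had 10.7 and 10.7 CPM in the ELR libraries, 3.46 and 3.18 CPM in the EL libraries, and 9.87 and 1.81 CPM in the EH libraries. The EH replicates bracket EL and nearly reach ELR, and only ELR against EL passed the test (1.68 ± 0.42, adjusted p = 0.000914). The RNA libraries had 20.5, 2.71 and 5.83 CPM of ERN1 in ELR, EL and EH. ATF6, the sensor that becomes a transcription factor by cleavage, had 102 and 94.8 CPM in the ELR libraries, 92.7 and 80.8 CPM in the EL libraries, and 136 and 105 CPM in the EH libraries. Its drop in EL against EH (−0.47 ± 0.12, adjusted p = 0.000692) was lost without the first EH library (−0.27, adjusted p = 0.202). In ELR against EH (−0.27 ± 0.12, adjusted p = 0.0433) the call was lost without the first EH library (adjusted p = 0.745), either ELR library (0.0959 and 0.166) or the first EL library (0.0504). EIF2AK3, the PERK kinase, had 8.40 and 7.99 CPM in the ELR libraries, 6.93 and 11.8 CPM in the EL libraries, and 7.59 and 19.0 CPM in the EH libraries. The lines overlapped, and no comparison of EIF2AK3 passed the test (adjusted p from 0.190 to 0.801).

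In the wider pathway each of the 5 lists had more genes lower than higher in cycloheximide footprints of all 3 comparisons. Where 27.8% of all genes fell and 25.5% rose, in ELR against EH, 15 of 19 other folding genes fell and none rose, 13 of 16 glycosylation and glucosidase genes fell and 1 rose, and 8 of 12 stress regulators and PERK targets fell and 1 rose. Signal recognition, other translocation and signal peptidase genes had 7 lower and 3 higher of 16, and other degradation genes had 7 lower and 1 higher of 18, lower shares nearer to that of all genes. In EL against EH, where 22.4% of all genes fell and 19.1% rose, the lower and higher counts, in the same order of lists, were 13 and 1, 12 and 0, 8 and 1, 7 and 3, and 6 and 2. In ELR against EL, where 18.7% and 17.4% did, they were 9 and 1, 6 and 1, 3 and 0, 4 and 2, and 6 and 3, with 3 of 12 stress genes and 4 of 16 signal recognition genes near the share of all genes. CHAC1, a glutathione-degrading enzyme induced by ATF4, headed the stress list in all 3 comparisons. It had 2.67 and 3.20 CPM in the ELR libraries, 11.5 and 11.8 CPM in the EL libraries, and 30.4 and 35.2 CPM in the EH libraries. FKBP7, an ER prolyl isomerase, had the largest change of the folding list in ELR against EH (−4.28 ± 0.33), with 0.764 and 5.86 CPM in the ELR libraries and 50.9 and 67.7 CPM in the EH libraries.

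ATF4, the transcription factor of the PERK arm, was looked at after its values were seen. Its cycloheximide footprints were 14.9 and 13.9 CPM in ELR, 53.5 and 55.8 CPM in EL, and 79.0 and 82.1 CPM in EH. Its RNA was 727, 548 and 579 CPM in ELR, EL and EH. Under harringtonine ATF4 had 35.4 and 40.8 CPM in ELR, 47.9 and 30.1 CPM in EL, and 41.4 and 26.2 CPM in EH. Those lines overlapped. The changes of ATF4 and CHAC1 beyond their RNA rest on 1 RNA library per line. They were not checked under the alternative fits. The footprint change of ATF4 beyond its RNA was −2.36 ± 0.19 in ELR against EL (edgeR interaction, adjusted p = 7.76e-17) and −2.82 ± 0.20 in ELR against EH (adjusted p = 9.56e-21). The change of CHAC1 beyond its RNA in ELR against EL was −2.77 ± 0.64 (adjusted p = 0.0034).

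RNA of the BJ lines, with 1 library per line and no test, mostly went the same way as the footprints. All 22 genes that fell in EL against EH had an RNA ratio below 1, as did 13 of 16 in ELR against EL (not ERO1L, HERPUD1 and SEC61A1) and 24 of 26 in ELR against EH (not DERL1 and SYVN1). The median log2 ratio of RNA, with a pseudocount of 1 CPM, was −0.31 in EL against EH, −0.18 in ELR against EL and −0.39 in ELR against EH. Of 33, 34 and 34 genes at 10 CPM or more in at least 1 of the 2 lines, 27, 20 and 28 lay below 0, where 52.2%, 50.3% and 51.4% of all genes did. CALR RNA was 1938, 2711 and 3441 CPM in ELR, EL and EH, and PPIB RNA was 526, 823 and 1069 CPM. Both were ordered like their footprints.

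Ribosome loading, the footprint change beyond the RNA change, was tested as an interaction in which single RNA libraries were assumed to vary like the footprints. In ELR against EL, 6 of 36 genes fell and none rose, where 1.94% of 11081 genes fell and 1.03% rose. They were HERPUD1 (−1.12 ± 0.30), DNAJC3 (−0.81 ± 0.21), XBP1 (−0.74 ± 0.16), SSR3 (−0.53 ± 0.10), ERO1L (−0.49 ± 0.13) and HYOU1 (−0.41 ± 0.11). In ELR against EH, 4 fell, DNAJC3, SEC61A1, HERPUD1 and XBP1, and none rose, where 4.26% and 3.22% of all genes did so. SSR3 rose in EL against EH (0.45 ± 0.11, adjusted p = 0.00543), the only call there, where 3.78% of all genes rose and 2.92% fell. RNA of DNAJC3 was 127, 75.0 and 139 CPM in ELR, EL and EH, so that ELR and EL had like footprints from unlike RNA. DESeq2 called 1, 0 and 0 of these genes in the 3 comparisons in that order, and without the first ELR cycloheximide library edgeR called 1 in ELR against EL and 2 in ELR against EH. Without the first EL library 2 were called in EL against EH. By gene, without the first ELR library DNAJC3 (adjusted p = 0.255), ERO1L (0.175), HERPUD1 (0.0757), HYOU1 (0.150) and XBP1 (0.0524) lost the call in ELR against EL, and SSR3 kept it. HYOU1 also lost it without the second ELR library (0.0571) or the second EL library (0.139), and ERO1L without the first EL library (0.116). The calls in ELR against EH were lost by DNAJC3 without the first ELR library (0.145) and by XBP1 without the first EH library (0.0917). HERPUD1 lost it there without either ELR library (0.0975 and 0.0621) or the second EH library (0.0663).

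Harringtonine footprints were shallower, and 26 of the genes passed the filter. PDIA4 fell in EL against EH (−0.71 ± 0.25, adjusted p = 0.0263), where 11% of 3553 genes fell and 7.57% rose. In ELR against EL, HSP90B1, CALR, PPIB and XBP1 fell and SSR3 rose, where 9.91% fell and 6.39% rose. In ELR against EH, 10 fell (HSP90B1, CALR, PPIB, PDIA3, PDIA4, PDIA6, P4HB, SSR4, SEL1L and XBP1) and HSPA5, SSR3 and ATF6 rose, where 17.4% fell and 13.3% rose. XBP1 had 253 and 267 CPM in ELR, 587 and 559 CPM in EL, and 729 and 716 CPM in EH, and the 3 lines did not overlap. HSPA5 under harringtonine had 1777 and 1820.4 CPM in ELR against 1417 and 1450.2 CPM in EH (0.26 ± 0.10, adjusted p = 0.0415), opposite to its cycloheximide change of −0.13. The HSPA5 call was lost without any 1 of the 6 libraries (adjusted p from 0.0580 to 0.396), and the ATF6 call without any but the first EL library (from 0.0519 to 0.273). The PPIB call in ELR against EL was lost without either ELR library (0.235 and 0.0578) or the second EL library (0.682). The PDIA4 call was lost without either EL library (0.134 and 0.0857) or the second EH library (0.475), and without that EH library 8 were called in ELR against EH. Among the genes that fell, HSP90B1 lost its call in ELR against EL without the first EL library (0.109). PDIA3 lost that in ELR against EH without either EH library (0.0690 and 0.0989) or the first ELR library (0.130), and PDIA4 without the second EH library (0.0692). Also in ELR against EH, SSR4 lost it without either ELR library (0.122 and 0.103) or the second EH library (0.243), and SEL1L without the first EH library (0.204) or the second ELR library (0.0996). DESeq2 called 0, 3 and 8 genes in EL against EH, ELR against EL and ELR against EH.

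In ER-Src cells the question is what Src induction did to these genes over 24 h. After 1 or 4 h of tamoxifen none of the 37 tested genes was called in footprints or RNA, and after 24 h ERO1L rose in both and SSR3 fell in footprints. At 1 and 4 h, 0.0196% and 0.834% of 10193 genes rose in footprints and 0% and 0.0196% fell. DESeq2 also called none of the 37. Of them, 3 and 4 had an unadjusted edgeR p under 0.05, as did 795 and 760 of all 10193 genes. In RNA 0.00942% and 0.16% of 10612 genes rose and 0% fell, and 1 and 0 of the 37 had an unadjusted p under 0.05. The ER-Src libraries of a group varied more than the BJ ones (biological coefficient of variation 13.9% and 1.8%). The uninduced ER-Src group joins 0 h with 1, 4 and 24 h of ethanol, over both replicate numbers. Its spread can include those differences, so the 2 values are not of like groups. In data simulated like the 1 h footprint comparison, 11.8% of genes changed by 0.5 on the log2 scale and 63.1% of those changed by 1 were called. Changes of those sizes in single genes may therefore have gone uncalled.

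At 24 h, ERO1L (NM_014584, chromosome 14, 53106633 to 53162618) was the 1 gene that rose, where 8.8% of all genes rose and 5.84% fell. Its footprints were 291 and 245 CPM at 24 h of tamoxifen, against 141 CPM at 0 h and 155, 166 and 136 CPM after 1, 4 and 24 h of ethanol. Both tamoxifen libraries lay above every uninduced one, and at 1 and 4 h of tamoxifen its footprints were 160 and 166 CPM and 152 and 150.1 CPM. The log2 change at 24 h was 0.84 ± 0.12 (adjusted p = 0.000197). ERO1L RNA was 383 CPM at 24 h of tamoxifen, against 261 CPM at 0 h and 259.7, 241 and 255 CPM after ethanol, a log2 change of 0.58 ± 0.14 (adjusted p = 0.0264), where 4.67% of all genes rose and 1.8% fell. It was the only 1 of the 37 called in RNA, and the RNA call was lost without any 1 of the 0 h, 1 h ethanol and 4 h ethanol libraries (adjusted p = 0.0660, 0.0792 and 0.0887). Without the 24 h ethanol library, 11 of the 37 were called in footprints (4 higher and 7 lower) and 5 in RNA (1 higher and 4 lower). The share of all genes called in those refits was not taken, so their counts have no background to be read against. The 0 h cycloheximide library carries replicate number 1 and the ethanol ones number 2. Within number 1, 24 h of tamoxifen against 0 h gave the 36 genes at 10 CPM or more a median log2 ratio of −0.12, and within number 2, 24 h of tamoxifen against 24 h of ethanol gave the 37 a median of 0.13. ERO1LB, the paralogue of ERO1L, had 7.91 and 15.0 CPM at 24 h of tamoxifen and from 4.46 to 9.72 CPM in the uninduced footprint libraries (0.84 ± 0.36, adjusted p = 0.138).

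SSR3 footprints were 342 and 327 CPM at 24 h of tamoxifen, against 499 CPM at 0 h and 503, 527 and 403 CPM after 1, 4 and 24 h of ethanol. Both tamoxifen libraries lay below every uninduced one, but the 24 h ethanol library was the nearest to them. The log2 change was −0.53 ± 0.13 (adjusted p = 0.0124). The call was lost without either 24 h tamoxifen library (adjusted p = 0.0806 and 0.141), and against the 24 h ethanol library alone the change was −0.26 ± 0.15 (adjusted p = 0.371). ATF6 and ERN1 were higher at 24 h without passing the test. ATF6 had 114 and 112 CPM at 24 h of tamoxifen and 65.4, 82.9, 83.8 and 98.0 CPM at 0 h and after 1, 4 and 24 h of ethanol (0.44 ± 0.15, adjusted p = 0.0589). ERN1 had 13.4 and 10.5 CPM at 24 h of tamoxifen and 2.23, 4.40, 6.48 and 7.58 CPM in those uninduced libraries (1.06 ± 0.39, adjusted p = 0.0816). In both genes every 24 h tamoxifen library lay above every uninduced one, of which the 24 h ethanol library was the highest. How many of all genes separate in this way was not counted. The summed epithelial markers moved too, with 11291 to 14361 CPM at 24 h of tamoxifen and 7268 to 10089 CPM uninduced. Most of the sum was keratin, and KRT5, KRT14 and KRT17 lay above their uninduced ranges. CDH1 overlapped (120 to 140 CPM at 24 h and 96.9 to 136 CPM uninduced). EPCAM was lower (108 to 128 CPM and 141 to 173 CPM). The part of the markers in the 24 h changes was not tested. EIF2AK3 had 12.8 and 12.0 CPM at 24 h of tamoxifen and 14.1, 17.6, 18.7 and 11.5 CPM uninduced, and overlapped. Ribosome loading called none of the 37 at 1, 4 or 24 h, where 0%, 0% and 0.00898% of 11133 genes rose and 0%, 0% and 0.431% fell. DESeq2 also called none, and 1, 0 and 1 had an unadjusted edgeR p under 0.05.

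**Figure D3:**
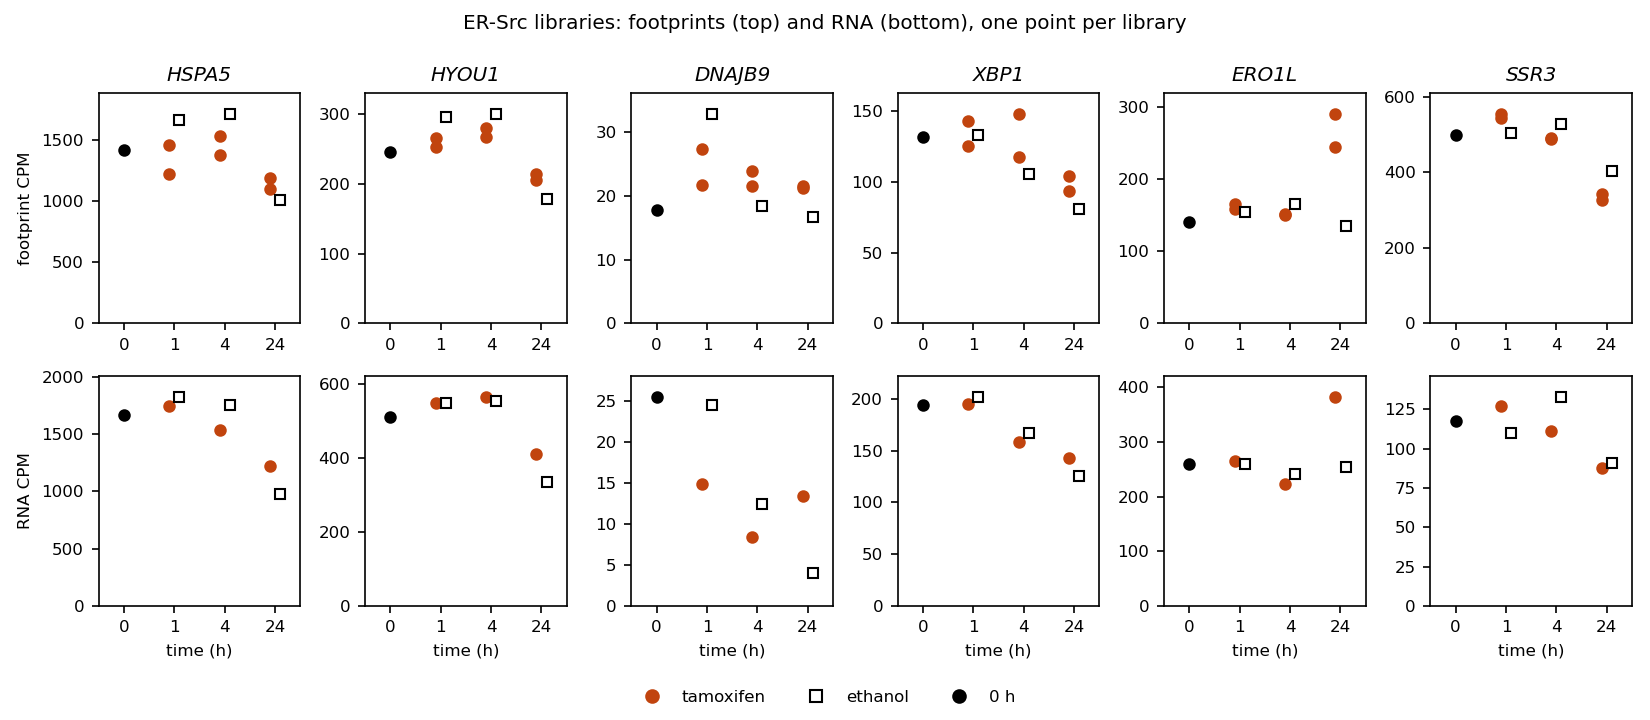
Normalised read counts (y axis, CPM, from 0) of 6 genes in ER-Src footprints (top row) and RNA (bottom row) by time in h (x axis, evenly spaced), 1 point per library: filled orange circles are tamoxifen, open squares ethanol and black circles 0 h. ERO1L is high after 24 h of tamoxifen (291 and 245 CPM of footprints) and not after 24 h of ethanol (136 CPM), while HSPA5, HYOU1 and XBP1 are low at 24 h with either.

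For several chaperones the 24 h libraries lay together, whether tamoxifen or ethanol had been given. HSPA5 footprints were 1097 and 1191 CPM at 24 h of tamoxifen and 1013 CPM at 24 h of ethanol, while the other uninduced libraries, at 0 h and after 1 and 4 h of ethanol, had 1417, 1666 and 1711 CPM. HSPA5 RNA was 1223 CPM with tamoxifen and 982 CPM with ethanol at 24 h, and 1667, 1829 and 1752 CPM in those other libraries. HYOU1, a large chaperone that exchanges the nucleotide of BiP, had 409 CPM of RNA with tamoxifen and 336 CPM with ethanol at 24 h, and 511, 547 and 553 CPM in the others. The 24 h ethanol library was therefore set against the other 3 uninduced libraries, a comparison added after its values were seen. It has 1 library on 1 side, assumed to vary like the others. In RNA, 8 of 37 genes fell and none rose, where 1.57% of 10612 genes fell and 1.31% rose. They were DNAJB9 (−2.37 ± 0.53), SDF2L1 (−1.52 ± 0.39), HSPA5 (−0.84 ± 0.10, adjusted p = 1e-05), HYOU1 (−0.69 ± 0.12), DNAJB11 (−0.61 ± 0.15), XBP1 (−0.59 ± 0.16), DNAJC3 (−0.57 ± 0.14) and CALR (−0.52 ± 0.099). Of the 37, 36 lay below 0, with a median of −0.31 against −0.02 for all genes. All 37 were chosen as genes of ER folding or the unfolded protein response. Of the called genes, HSPA5, CALR, HYOU1, SDF2L1 and XBP1 had ERSE or ERSE-II in the promoter window, and DNAJB9, DNAJB11 and DNAJC3 did not. CANX, CRELD2, ERO1LB, HSP90B1, PDIA6 and HERPUD1 had a match and were not called. The part of the unfolded protein response in this drop was not tested. In footprints none of the 37 was called by edgeR, where 0.296% of all genes fell and 0.392% rose, but 33 lay below 0 with a median of −0.27. DESeq2 called fewer of them than edgeR in RNA and some in footprints. Without the 1 h ethanol library edgeR called none in RNA, and without the 0 h library it called 1 in footprints.

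Genes with ERSE or ERSE-II in the promoter window had a median log2 change of −0.60 in footprints and −0.56 in RNA in the 24 h ethanol library against the other uninduced ones (11 genes, 11 below 0 in each). The 24 with neither had −0.19 and −0.30 (20 and 23 below 0). The split was not the same in every comparison. In 24 h of tamoxifen against 24 h of ethanol the medians were 0.24 with a match and 0.13 without in footprints, and 0.22 and 0.33 in RNA. In BJ cycloheximide footprints of EL against EH they were −0.22 for the 10 tested with a match and −0.47 without, in ELR against EL −0.25 and −0.15, and in ELR against EH −0.73 and −0.61. These are descriptions without a test.

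Against the 24 h ethanol library alone, also added after its values were seen, 24 h of tamoxifen raised ERO1L in footprints (0.99 ± 0.17, adjusted p = 0.00154) and in RNA (0.58 ± 0.16, adjusted p = 0.0261) and called no other of the 37. There, 5.57% of all genes rose and 1.97% fell in footprints, and 4.37% and 1.38% in RNA. The median change of the 37 was 0.16 in footprints and 0.24 in RNA, against −0.006 and −0.004 for all genes, with 8 and 6 below 0. Both medians have the opposite sign of those against all uninduced libraries, which were −0.11 and −0.14. DNAJB9, an HSP40 that restrains IRE1, had 13.5 CPM of RNA with tamoxifen and 4.02 CPM with ethanol at 24 h (1.73 ± 0.62, adjusted p = 0.111), and 25.6, 24.5 and 12.5 CPM at 0 h and after 1 and 4 h of ethanol. How much of a 24 h change belongs to time in culture and how much to Src cannot be told apart with 1 ethanol library per kind at that time.

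**Figure D4:**
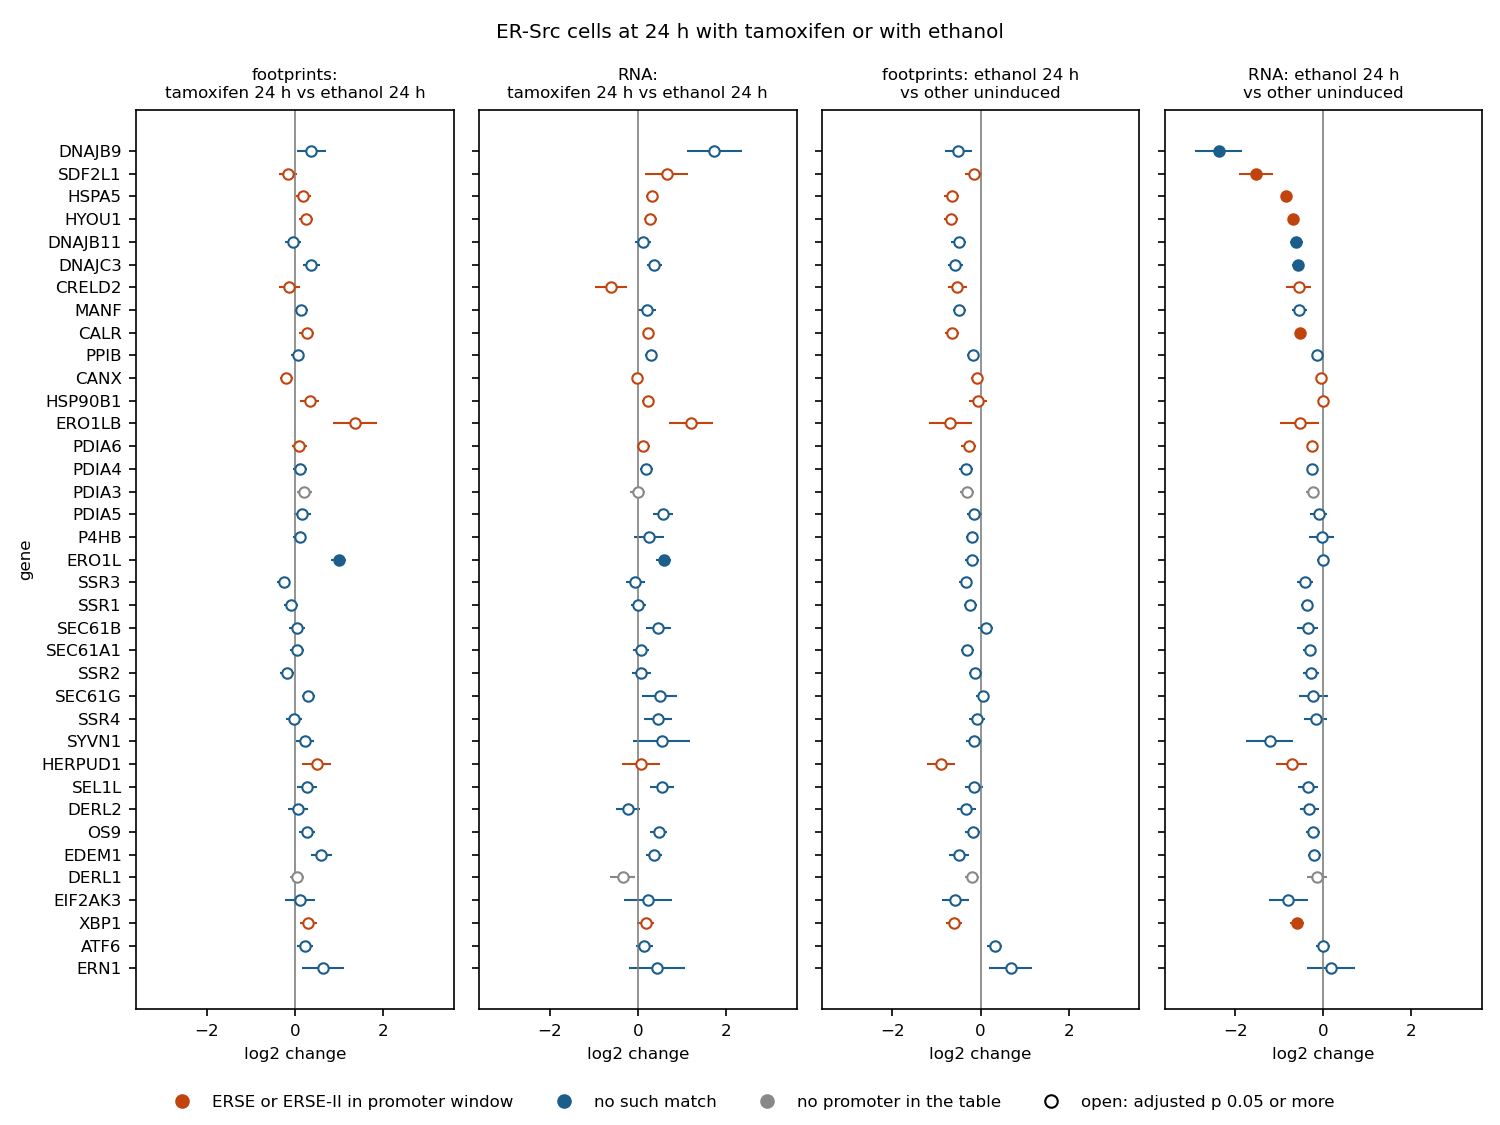
Log2 change (x axis) with its standard error of the 37 tested genes (y axis, by role) in tamoxifen 24 h against ethanol 24 h, and in ethanol 24 h against the other uninduced libraries, each for footprints and RNA. Orange marks genes with ERSE or ERSE-II in the promoter window, blue those without and grey those with no promoter in the table, and filled points have an adjusted p under 0.05. ERO1L is the filled point in both tamoxifen panels, and 8 points are filled in the RNA panel of ethanol.

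In the wider pathway, against all uninduced libraries, no gene of the 5 lists was called at 1 or 4 h in footprints, or at 1, 4 or 24 h in RNA. At 24 h of tamoxifen, where 8.8% of all genes rose and 5.84% fell in footprints, 2 of 10 stress regulators rose in footprints and none fell, 1 of 18 other degradation genes rose and 1 fell, which is near the shares of all genes, and 2 of 16 signal recognition and signal peptidase genes fell. ATF3, a transcription factor of several stress responses, had 8.51 and 13.8 CPM at 24 h of tamoxifen and from 1.57 to 5.95 CPM in the uninduced libraries (2.00 ± 0.44, adjusted p = 0.00553). EDEM2, a mannosidase of the degradation pathway, had 43.8 and 31.7 CPM and from 17.3 to 23.5 CPM (0.94 ± 0.21). SEC11A, the catalytic subunit of signal peptidase, had 145 and 154 CPM and from 215 to 273 CPM (−0.73 ± 0.14). In all 3 the 24 h tamoxifen libraries did not overlap the uninduced ones. No gene of the glycosylation list or of the other folding list was called there. Against the 24 h ethanol library alone, ATF3 rose in footprints (2.86 ± 0.65, adjusted p = 0.0112) and, with QSOX1, a sulfhydryl oxidase of the other folding list, in RNA (3.90 ± 1.02, adjusted p = 0.0174, and 0.89 ± 0.24, adjusted p = 0.0229). In RNA of 24 h of ethanol against the other uninduced libraries, PPP1R15A (GADD34), a phosphatase subunit of the PERK arm, fell (−1.45 ± 0.33, adjusted p = 0.0107). QSOX1 fell there as well (−0.83 ± 0.20, adjusted p = 0.0220), and LMAN1, a cargo lectin of the glycosylation list, rose (0.49 ± 0.13, adjusted p = 0.0323).

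Under harringtonine, with 1 library per time and no test, ERO1L had 163, 107, 173 and 299.7 CPM at 0, 1, 4 and 24 h, and HSPA5 had 3264, 3163, 3371 and 2135 CPM. XBP1 had 449, 338, 547 and 270.0 CPM at these times. At 24 h against 0 h the 37 genes at 10 CPM or more had a median log2 ratio of 0.12, with 14 below 0. For all 8386 genes at that level the median was 0.14, with 41.6% below 0.

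The ratio of footprints to RNA of the same gene differed by role in both models. In EH cells the 7 translocon subunits had a median log2 ratio of footprint CPM to RNA CPM of 1.74, against −0.12 for all 7360 genes at 10 CPM or more in both and 0.73 for those with coding regions under 900 bases. In uninduced ER-Src cells the medians were 1.68, −0.10 and 0.78. Of the subunits, SEC61A1 alone has a coding region of 900 bases or more. SEC61G reached 3.49 in EH and 4.10 in ER-Src cells. Of the genes described here P4HB had the highest ratio, with 1787 CPM of footprints and 105 CPM of RNA in EH (log2 4.09) and 745 and 29.8 CPM in uninduced ER-Src cells (4.65), above 99.7% and 100% of genes. EDEM1, a lectin of the degradation pathway, lay at the other end, at −1.90 and −1.91, above 8.1% and 6.9% of genes. Footprint and RNA libraries were made by different methods, and their part in these ratios was not tested. Per kilobase of coding sequence, the highest footprint levels were those of CALR (2244 CPM per kb) and PPIB (1947 CPM per kb) in the BJ libraries, and of PPIB (2249 CPM per kb) and SEC61G (1649.7 CPM per kb) in the ER-Src libraries.

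Between the models, uninduced ER-Src cells had 5 of 37 genes higher and 13 lower than EH in footprints, where 29.4% and 29.7% of 10936 genes were, so the lower share was near that of all genes. DNAJC3 (0.75 ± 0.19) and DERL1 (0.49 ± 0.12) were higher, and P4HB (−1.28 ± 0.092), OS9 (−1.26 ± 0.12), SEL1L (−1.20 ± 0.14) and CALR (−1.07 ± 0.14) were lower. HSPA5 (−0.06 ± 0.15) and XBP1 (0.10 ± 0.18) did not pass the test (adjusted p = 0.776 and 0.672). The call of MANF was lost without either EH library or any 1 of the 0 h, 1 h ethanol and 4 h ethanol libraries (log2 changes from 0.30 to 0.43). ERO1L and PPIB lost theirs without the second EH library (0.37 and −0.29), and ATF6 without the first (−0.34). Cell model and any batch cannot be told apart.

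Both forms of XBP1 are listed, so counts could be looked at in the part that codes only after the splice by IRE1. The splice removes 26 bases from the message (GRCh37 chromosome 22, 29192116 to 29192141, minus strand) and shifts the reading frame, which gives a coding region of 1128 bases in place of 783. The removed bases are in capitals below, with 20 bases on each side, as the annotation places them. The same GCAG follows the capitals, so the boundary can be shifted without changing the product.
XBP1, chr22:29192096-29192161, minus strand, GRCh37: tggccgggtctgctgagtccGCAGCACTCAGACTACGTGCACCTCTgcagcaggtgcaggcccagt
The last 371 coding bases of the spliced form (29191166 to 29191536) lie beyond the stop codon of the unspliced one. The count of the spliced transcript minus that of the unspliced one, as a share of the spliced transcript's count, was taken as the share of reads there, on the reading that counts cover coding regions only. In cycloheximide footprints the share was 27.3% in ELR (65 of 238 reads, Wilson 95% interval 22.04% to 33.3%), 28.8% in EL (143 of 497, 24.97% to 32.9%) and 23.6% in EH (59 of 250, 18.8% to 29.2%). It was 23.5% in uninduced ER-Src cells (21.1% to 26.0%), 26.2% at 1 h (22.4% to 30.5%), 19.5% at 4 h (16.6% to 22.8%) and 23.4% at 24 h of tamoxifen (19.9% to 27.3%). In the BJ harringtonine libraries these were 18 of 50 and 29 of 59 reads in ELR, 43 of 98 and 37 of 93 in EL, and 40 of 88 and 39 of 82 in EH. The share was 29.7%, 33.3%, 37.8% and 24.8% in the harringtonine libraries of 0, 1, 4 and 24 h of tamoxifen. In RNA, where that stretch is read from both forms, it was 24.2% in the BJ lines (21.8% to 26.8%) and 27.6% in ER-Src cells (26.0% to 29.2%). The cycloheximide intervals of the 3 lines overlap, as do those of neighbouring times, and they cover counting error only. A difference in the share between ELR, with its lower XBP1 footprints, and the other lines was not detectable at this depth. Against RNA, the cycloheximide shares lay on either side in BJ lines and below it in ER-Src cells. Counts in the 26 removed bases can be subtracted too, so the difference is a net one. How much of the share comes from the splice was not tested.

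**Figure D5:**
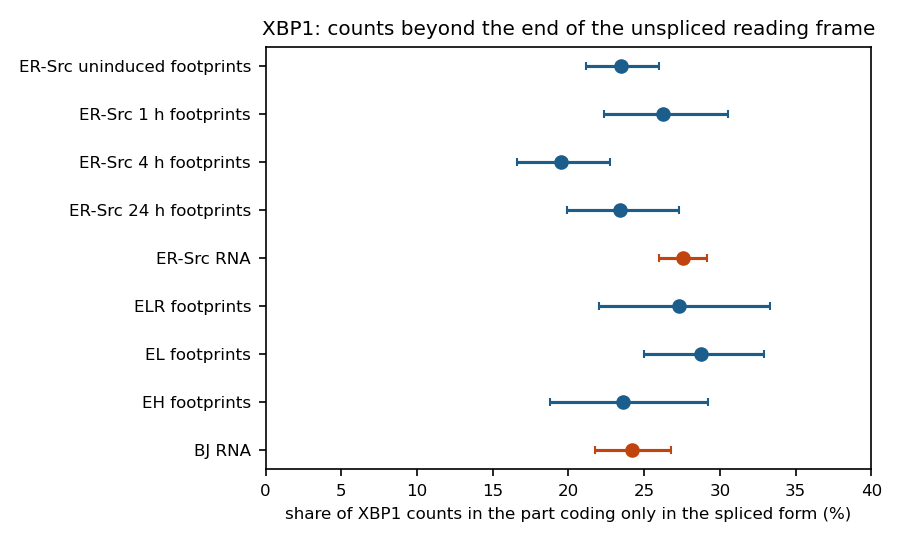
Share of XBP1 counts in the part that codes only in the spliced form (x axis, %, from 0), pooled over the libraries of each group (y axis), with Wilson 95% intervals. Cycloheximide footprints are blue and RNA orange, and values lie between 19.5% and 28.8%.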

How the data were processed

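Ribosome footprints and RNA of 36 libraries were analysed, each with 1 deposited table of read counts over 36499 transcripts. Per the submitters' processing notes, reads were aligned to hg19 with TopHat, and the authors' tables hold whole-number counts that were not normalised. The program that counted them, its strand setting and its treatment of reads shared by several genes are not given in the sources used here. RNA had been depleted of ribosomal RNA (RiboMinus) and made into libraries with ScriptSeq v2, per the labels.

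Each gene was represented by its transcript with the highest mean count over the 36 libraries. Counts were fitted over all genes with edgeR 4.0.16 (TMM, filterByExpr with a minimum count of 10 and a total of 15, quasi-likelihood test, two-sided) in R 4.3.3, and p-values were adjusted by Benjamini and Hochberg within each of 19 comparisons. Calls are those with an adjusted p below 0.05. The ± beside a log2 change is its standard error. The uninduced arm of ER-Src cells was the 0 h library with those of 1, 4 and 24 h of ethanol. Ribosome loading was the interaction of library kind and group, and arms with 1 RNA library were assumed to vary like the rest. BJ RNA and ER-Src harringtonine were compared as ratios of CPM with a pseudocount of 1 for genes at 10 CPM or more, without a test. The alternatives were DESeq2 1.42.0, DESeq2 size factors in edgeR, no filter on low counts, another choice of transcript, a replicate block, the spread of the ER-Src libraries and leaving out each library. The fits were tested on simulated counts. Positions on GRCh37 and promoters on GRCh38.p14 came from GENCODE and RefSeq, and tables and plots were made with Python 3.11.15, pandas 2.3.3 and matplotlib 3.10.9.

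The 38 genes and the 5 lists of other genes were chosen with earlier results of these data known. Values in every library were given for the most abundant gene of each role, for the called gene with the largest change in each role and cycloheximide comparison, and for the 4 sensor genes. HSPA5, HYOU1, DNAJB9, SDF2L1 and ATF4 were added after their values were seen, and other lists were named by their largest called change. Depth limits low genes such as ERN1 and EIF2AK3. Intervals of shares cover counting error only.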

Additional observations from a re-analysis of the deposited data

Results flagged for a closer look

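Among 74 sets of 4 uninduced ER-Src libraries (37 genes, footprints and RNA), 2 held a library that stood far from the other 3, where chance marks about 1 in 20. DNAJB9 footprints were 32.8 CPM after 1 h of ethanol, against 16.7 to 18.4 CPM in the other uninduced libraries. MANF, a secreted ER stress protein, had 183.9 CPM of footprints after 24 h of ethanol, against 254.7 to 259.8 CPM in the others.

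In 3 genes the footprints at an early and a late time of tamoxifen lay on opposite sides of all 4 uninduced libraries. These differences between times were not tested, and 114 pairs of times were looked at. SSR3 was above them at 1 h (554 and 543.5 CPM) and below them at 24 h (mean 334.4 CPM). SSR2, another subunit of its complex, was above them at 1 h (378 and 372 CPM) and at 4 h (394 and 361 CPM) and below them at 24 h (mean 265.9 CPM), with 302 to 349 CPM uninduced. SDF2L1 was above them at 4 h (70.1 and 73.5 CPM) and below them at 24 h (mean 47.2 CPM), with 52.4 to 69.1 CPM uninduced.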

How the results depend on the processing

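No change of a called gene reversed under any alternative. Of the values of single called genes, 1374 kept their side of the threshold and 181 lost it. Of the counts of called genes, 233 stayed within 1.5 times the value reported and 29 did not. The 233 include counts of 0 that stayed at 0. With the ER-Src spread put into the test, 12 genes were called in EL against EH and 7 in ELR against EL, in cycloheximide footprints. DESeq2 called 0, 3 and 8 in harringtonine footprints (EL against EH, ELR against EL, ELR against EH) and 0, 1 and 0 in BJ ribosome loading, and DESeq2 size factors gave 2 in harringtonine footprints of EL against EH. At 24 h of tamoxifen 4 were called in footprints without a filter, and 1 against the 24 h ethanol library alone. For 24 h of ethanol against the other uninduced libraries, DESeq2 called 3 in footprints and 3 in RNA, and 4 were called in footprints without a filter. Leaving out 1 library in turn gave 0 to 1, 4 to 5 and 8 to 12 calls in harringtonine footprints and 1 to 2, 1 to 6 and 2 to 4 in BJ loading, in the same order of comparisons. It gave 1 to 11 at 24 h of tamoxifen in footprints and 0 to 5 in RNA, and for 24 h of ethanol 0 to 1 in footprints and 0 to 10 in RNA. The shares of all genes called under these alternatives were not taken, and the cause of the shifts was not tested.

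In BJ libraries the replicate numbers left little trace. Deviations of same-numbered libraries correlated between −0.009 and 0.034 in cycloheximide footprints and between 0.002 and 0.028 under harringtonine. Over 3 pairs of tamoxifen times they correlated between 0.041 and 0.177, so ER-Src libraries of 1 number shared some deviation. The labels do not say whether a number marks a batch. With a replicate block, 25, 18 and 27 genes were called in BJ cycloheximide footprints, as without it, and 12 under harringtonine in ELR against EH in place of 13.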
